A study of Rattus norvegicus with 16 samples.

Results

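The BCL2 family holds the proteins that decide whether the outer membrane of the mitochondrion is kept closed or opened during apoptosis, and the messenger RNA of 10 of its members was followed here in the liver of septic rats under isoflurane or propofol anesthesia. The members were chosen by gene symbol: the pro-survival genes Bcl2, Bcl2l1, Mcl1 and Bcl2a1, the pore-forming genes Bax and Bak1, and the BH3-only genes Bid, Bcl2l11, Bbc3 and Pmaip1. All 10 were found among the 17055 gene symbols of the count files. The 8 tested members named in what follows had enough reads for a test across genes, and Bcl2 and Pmaip1 did not.

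The study asked how the volatile anesthetic isoflurane and the intravenous anesthetic propofol, which acts on GABA receptors, shape the response of the liver to abdominal sepsis. Male Sprague-Dawley rats aged 10 weeks were used, 12 in each of 4 groups. Sepsis was caused by cecal ligation and puncture (CLP), in which the blind gut is tied off and pierced so that its contents leak, and control rats had the abdomen opened without it. Livers were taken 8 h after the abdomen was opened. In the Isoflurane-Sepsis and Isoflurane-Control groups anesthesia was induced and kept up with isoflurane, whereas rats of the Propofol-Sepsis and Propofol-Control groups were induced with ketamine and xylazine before propofol. No group went without an anesthetic, so every control library is anesthetized, operated liver. Each group gave 4 libraries, each from the pooled liver tissue of 3 rats. An SD over 4 libraries is therefore the spread between pools and not between animals, and p-values measure only that spread. The names of the deposited files carry a different code for each anesthetic, and in any comparison across anesthetics the maintenance drug, the induction drugs and that code cannot be told apart.

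In the mitochondrial pathway of apoptosis, Bax and Bak1 oligomerize in the outer membrane and release cytochrome c. The pro-survival proteins hold them in check, and the BH3-only proteins either bind and block the pro-survival proteins or activate the pore formers directly. Hepatocytes are known for a strong dependence on Mcl1 and on Bcl-xL, the main product of Bcl2l1, and death receptor signals reach their mitochondria through the cleavage of Bid.

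Promoter sequence is shown for the 4 members whose window held a match to a motif of a stress or inflammation factor, so that the letters are at hand when the values of these members are read. The RefSeq promoter windows used here, in the rat build GRCr8, covered 8 of the 10 members. They gave 4 start sites for Bcl2l1 and 1 for each of the others. Bax and Bbc3 had no window among them and were not searched. The 250 bases before each start were searched on both strands for 6 motifs: STAT (TTCNNNGAA), NF-kB (GGGA and TTCC with 2 bases between), CRE (TGACGTCA), FOXO (TGTTTAC), AP-1 (TGANTCA) and the glucocorticoid response element, GRE (GNACA and TGTNC with 3 bases between). The matches found did not overlap one another. Capitals mark the matches: an NF-kB match, read on the opposite strand, in Mcl1 (chr2:185907918-185908167, plus strand), a pair of STAT matches before the third listed start of Bcl2l1 (chr3:161763386-161763635, minus strand), an AP-1 match in Bcl2a1 (chr8:98596556-98596805, plus strand) and a FOXO match, also read on the opposite strand, in Bcl2l11 (chr3:135819792-135820041, plus strand).
Mcl1: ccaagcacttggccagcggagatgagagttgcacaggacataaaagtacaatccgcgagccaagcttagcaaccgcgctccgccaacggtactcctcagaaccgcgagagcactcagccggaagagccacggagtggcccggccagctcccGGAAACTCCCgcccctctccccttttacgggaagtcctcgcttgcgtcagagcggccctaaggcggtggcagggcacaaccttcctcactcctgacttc
Bcl2l1: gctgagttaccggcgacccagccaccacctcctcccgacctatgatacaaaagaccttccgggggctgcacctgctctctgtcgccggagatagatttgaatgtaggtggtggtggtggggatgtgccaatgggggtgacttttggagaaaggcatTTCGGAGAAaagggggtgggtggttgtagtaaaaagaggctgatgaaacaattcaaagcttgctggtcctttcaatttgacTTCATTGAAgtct
Bcl2a1: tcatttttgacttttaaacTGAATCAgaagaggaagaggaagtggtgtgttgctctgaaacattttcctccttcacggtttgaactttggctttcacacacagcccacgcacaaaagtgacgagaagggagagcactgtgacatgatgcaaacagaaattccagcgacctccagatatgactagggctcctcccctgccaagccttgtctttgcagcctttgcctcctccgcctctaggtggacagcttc
Bcl2l11: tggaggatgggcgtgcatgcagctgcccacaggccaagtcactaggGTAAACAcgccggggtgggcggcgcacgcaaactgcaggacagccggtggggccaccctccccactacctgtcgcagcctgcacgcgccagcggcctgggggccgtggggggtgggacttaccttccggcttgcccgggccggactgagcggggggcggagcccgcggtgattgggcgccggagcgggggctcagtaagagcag
Of 33469 windows of 250 bases before annotated starts, 7.67% held the STAT letters, 1.08% the NF-kB letters, 6.34% the AP-1 letters, 3.21% the FOXO letters, 1.59% the CRE letters and 0.373% the glucocorticoid letters. The window of the fourth Bcl2l1 start overlaps that of the third and holds the same pair of STAT matches. The windows of Bcl2, Bak1, Bid, Pmaip1 and the first and second Bcl2l1 starts held none of the 6 motifs. These are matches of letters only, and no binding was measured.

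The libraries held 14199422 to 49937173 reads on genes. Levels are given as CPM, reads of a gene scaled to a common library size after TMM scaling, which depend on transcript length, so they are compared between libraries and not between genes. A gene was called higher or lower when the adjusted p of the edgeR quasi-likelihood test was below 0.05 after Benjamini-Hochberg adjustment over all genes tested, and all adjusted p-values below are of this kind unless another tool is named. The 6 hepatocyte markers summed to between 79200 and 127300 CPM in every library, so the libraries carry the markers of their labelled tissue. Propofol-Sepsis library 10 stood apart with 357 CPM over 6 brain markers, against at most 23.96 CPM elsewhere, and results that turn on it are given without it.

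Under isoflurane all 8 tested members rose in sepsis, and in each of them every septic library lay above every control library. The background was high: 50.0% of the 10361 genes tested were called in this comparison, 25.7% were called higher and 24.4% lower, and 24.3% had every septic library above every control. The median log2 fold change was 1.13 over the 8 tested members and 0.01 over all genes tested. One of the 8, Bcl2l11, reached the limit on low counts in 4 septic libraries and in only 2 control libraries, so its place among the tested genes owed something to its septic level. Without Isoflurane-Sepsis libraries 2 and 3, a choice made after seeing the data, 6 members were called. In that fit 4428 of 10542 genes were called, 2276 higher and 2152 lower. Under propofol 5 members rose (Mcl1, Bcl2l1, Bcl2a1, Bax and Bbc3) and none fell, in a comparison in which 42.1% of 10348 genes were called, 20.4% higher and 21.7% lower. In 4 of these 5 members every septic library lay above every control library, as was the case for 21.2% of all genes tested. The median log2 fold change under propofol was 0.41 over the 8 tested members and near 0 over all genes. Of the genes called under propofol 48.4% were higher with TMM scaling and 38.3% with library totals alone. Under isoflurane these shares were 51.3% and 43%.

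Summed markers of several cell types moved in the same isoflurane comparison. Hepatocyte sums were at 97010 to 110300 CPM in Isoflurane-Sepsis and 118700 to 127300 CPM in Isoflurane-Control libraries. Endothelial sums were at 104.8 to 117 and 145.4 to 179.9 CPM, and stellate cell sums at 70 to 104.6 and 59.9 to 65.7 CPM. None of the 3 sums overlapped between the groups. By gene, 3 of 6 hepatocyte and 3 of 5 endothelial markers were called lower and 0 higher (edgeR). Of 5 stellate cell markers 3 were called higher and 1 lower. Of all genes tested 25.7% were called higher and 24.4% lower. Under propofol the summed endothelial markers were again lower in sepsis, at 141 to 148 against 171.6 to 208.5 CPM. By gene, 2 of 5 endothelial markers were called lower there, 1 higher and 2 not called (edgeR). Hepatocyte and stellate cell sums overlapped under propofol. Their part in the results for the members was not tested.

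**Figure D1:**
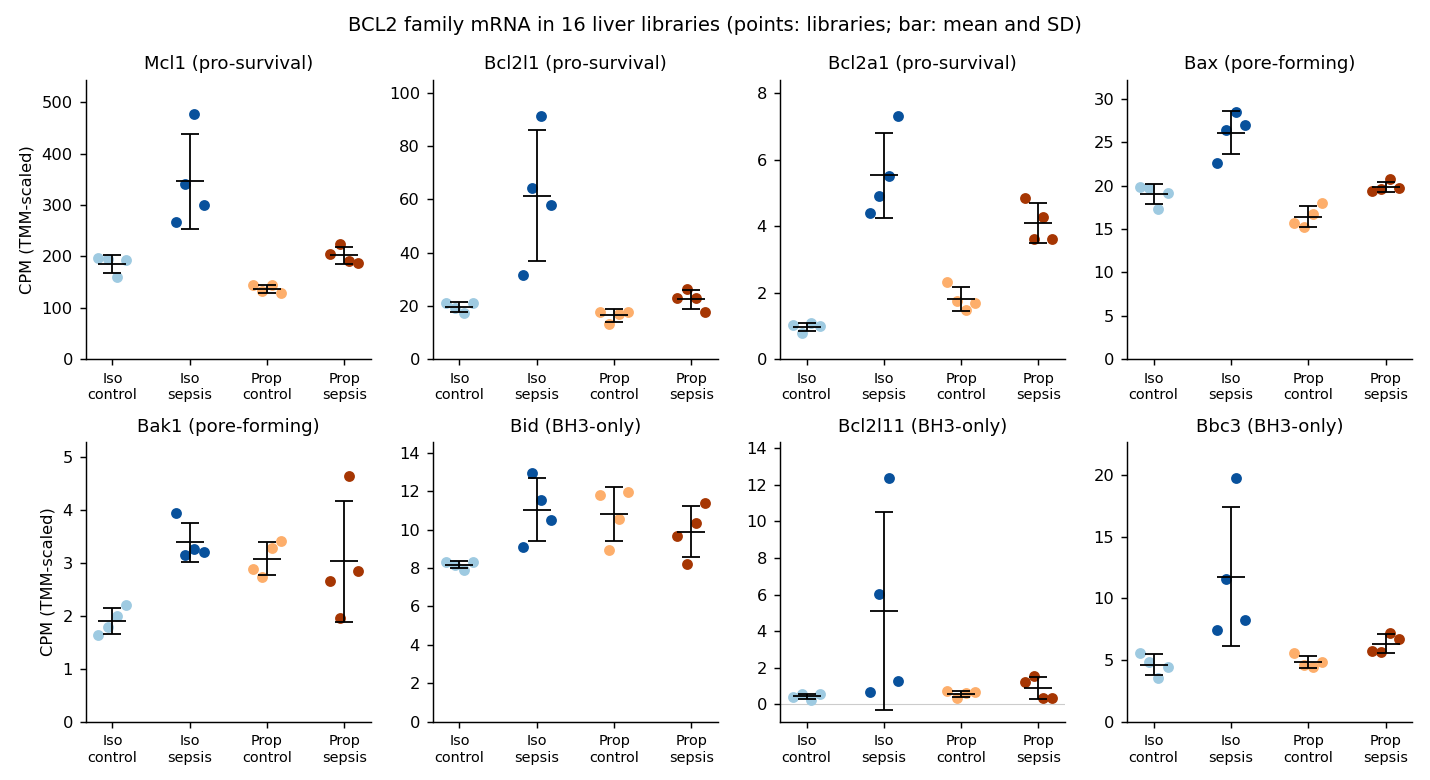
CPM of the 8 tested members (vertical axes from 0, or just under it for Bcl2l11 where the SD bar passes 0, scaled separately for each gene) in the 4 groups of 4 libraries. Points are libraries and bars give the mean and SD. Every Isoflurane-Sepsis point lies above every Isoflurane-Control point in all 8 panels, and the Bcl2l11 panel shows 2 of the 4 Isoflurane-Sepsis libraries far above the rest.

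Mcl1 encodes a short-lived pro-survival protein that binds Bak1 and several BH3-only proteins. Its level was 267, 342, 477 and 299.5 CPM in Isoflurane-Sepsis libraries 1 to 4 and 196, 195, 159.9 and 193 CPM in the Isoflurane-Control libraries. The lowest septic library thus lay well above the highest control, and library 3 was the highest of all 16. The group means were 346 ± 92.5 and 186 ± 17.4 CPM (SD, n = 4 each), and the log2 fold change was 0.90 ± 0.18 (SE, adjusted p = 0.0034, edgeR quasi-likelihood test). Under propofol Mcl1 went from 137 ± 8.14 CPM in controls, with libraries at 144, 132, 144 and 128 CPM, to 204, 225, 190.4 and 188 CPM in septic libraries. The groups again did not overlap, and the log2 fold change of 0.55 ± 0.07 had an adjusted p of 0.000403 by edgeR. Of the 8 tested members Mcl1 had the smallest spread relative to its rise under propofol, and its call held without any 1 library under each anesthetic.

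Bcl2l1 encodes Bcl-xL, the pro-survival protein that restrains both pore formers. Isoflurane-Sepsis libraries stood at 31.5, 64.4, 91.5 and 58.0 CPM and their controls at 21.1, 19.3, 17.2 and 21.2 CPM. All septic pools were above the controls, but they differed among themselves by more than the controls did, with library 1 the lowest and library 3 the highest. For Bcl2l1 the log2 fold change was 1.65 ± 0.28 (adjusted p = 0.00158, edgeR), the mean rising from 19.7 ± 1.88 to 61.3 ± 24.6 CPM (SD, n = 4). Propofol-Sepsis libraries held 22.9, 26.15, 23.1 and 17.6 CPM against 17.8, 12.99, 16.9 and 17.9 CPM in their controls. Library 12 lay within the control range, so these groups overlapped. The log2 fold change of 0.44 ± 0.14 was called at an adjusted p of 0.0259 by edgeR, and that call was lost on leaving out library 9, 10, 11 or 14, with adjusted p-values between 0.0521 and 0.0642. In the fit of all 16 libraries it was not called either (adjusted p = 0.137).

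Bcl2a1 encodes a small pro-survival protein known as an NF-kB target that is prominent in white blood cells. Its levels in the Isoflurane-Sepsis libraries were 4.39, 4.90, 5.49 and 7.31 CPM, and in the Isoflurane-Control libraries 1.035, 0.792, 1.07 and 0.979 CPM. Even the lowest septic library was far above the highest control. This gave a log2 fold change of 2.50 ± 0.20 (adjusted p = 6.3e-05, edgeR). Under propofol the septic libraries held 4.86, 3.62, 4.28 and 3.62 CPM and the controls 2.32, 1.75, 1.48 and 1.68 CPM, again without overlap, with a log2 fold change of 1.18 ± 0.19 (adjusted p = 0.000921, edgeR).

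Summed markers of neutrophils and monocytes were higher in sepsis under each anesthetic, as Bcl2a1 was. Within a group the order could differ: in Isoflurane-Sepsis library 3 had the highest sum and library 4 the highest Bcl2a1 level. The summed level of 10 such markers was 55.0 to 153 CPM in Isoflurane-Sepsis, 29.7 to 34.0 CPM in Isoflurane-Control, 60.2 to 86.4 CPM in Propofol-Sepsis and 36.0 to 48.3 CPM in Propofol-Control libraries. Of the 8 markers that could be tested, 6 were called higher in sepsis under isoflurane and 5 under propofol. Of all genes tested 25.7% were called higher and 24.4% lower under isoflurane, and 20.4% and 21.7% under propofol. Other white cell markers were called too: 5 of 7 Kupffer cell markers were higher and 1 lower under isoflurane, and 1 higher and 1 lower under propofol, and of 2 tested lymphocyte markers 2 were higher under isoflurane and 0 under propofol (edgeR). In the interaction none of the 8 neutrophil and monocyte markers, 1 of the 7 Kupffer cell markers and neither lymphocyte marker was called. The granule gene Mpo had at most 2 reads in any library and Fpr1 at most 4. Their part in the Bcl2a1 result was not tested, and in bulk tissue more cells of a type and more RNA per cell cannot be told apart.

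**Figure D2:**
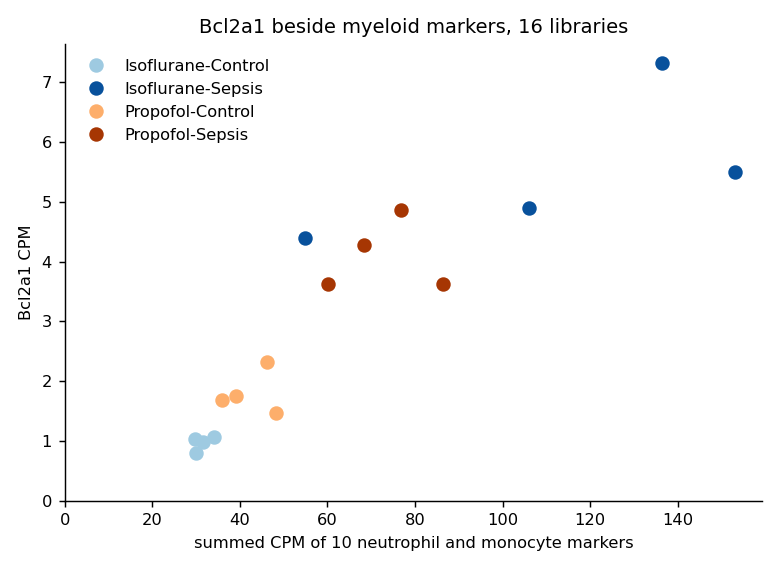
Bcl2a1 CPM (vertical axis) against the summed CPM of 10 neutrophil and monocyte markers (horizontal axis) in the 16 libraries, coloured by group. The 4 Isoflurane-Control libraries lie lowest on each axis, with 29.7 to 34.0 CPM of markers, and the 8 septic libraries lie above all 8 controls on each axis.

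Bcl2, the founding pro-survival gene, was at the edge of detection in these livers. It had 6, 7, 3 and 12 reads in the Isoflurane-Sepsis libraries and 10, 6, 6 and 8 reads in the Isoflurane-Control libraries. Under propofol it had 2, 8, 4 and 9 reads in septic and 5, 2, 3 and 6 reads in control libraries. After scaling for library size the septic to control ratio was 1.39 under isoflurane (95% exact Poisson interval 0.8 to 2.41) and 1.14 under propofol (0.579 to 2.32). No difference was detectable at this depth by the two-sided exact permutation test (p = 0.543 and p = 0.743, smallest p possible 0.0286). Such intervals cover counting error only.

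Bax, which moves from the cytosol to mitochondria to form pores, showed a small and even rise. Isoflurane-Sepsis libraries held 22.6, 26.4, 28.45 and 26.96 CPM and Isoflurane-Control libraries 19.85, 19.7, 17.3 and 19.1 CPM. The groups did not overlap, with a log2 fold change of 0.46 ± 0.09 (adjusted p = 0.00397, edgeR). Under propofol the levels were 19.4, 19.6, 20.7 and 19.7 CPM in sepsis and 15.7, 15.2, 16.7 and 18 CPM in controls. The septic pools were close together and above all controls, and the log2 fold change was 0.27 ± 0.07 (adjusted p = 0.0151, edgeR).

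Bak1, the pore former that resides on mitochondria, rose under isoflurane and not measurably under propofol. Its levels were 3.94, 3.16, 3.26 and 3.20 CPM in Isoflurane-Sepsis and 1.65, 1.78, 2.00 and 2.21 CPM in Isoflurane-Control libraries, a log2 fold change of 0.82 ± 0.15 (adjusted p = 0.002, edgeR). Propofol-Sepsis libraries spread from 1.955 CPM in library 10 to 4.65 CPM in library 11 around controls of 2.74 to 3.41 CPM. A log2 fold change of -0.04 ± 0.25 was not called (adjusted p = 0.914, edgeR), and its sign changed on leaving out library 9, 10 or 16, with values of 0.01, 0.11 and 0.02. Without library 10, the one with brain markers, it stood at 0.11.

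Among the BH3-only genes, Bid couples death receptors to mitochondria once its protein is cut by a caspase. Isoflurane-Sepsis libraries held 9.08, 12.96, 11.55 and 10.52 CPM of Bid and the controls 8.325, 8.17, 7.90 and 8.31 CPM. The controls were within a narrow band below all septic libraries, and the log2 fold change was 0.43 ± 0.12 (adjusted p = 0.0142, edgeR). Without libraries 2 and 3 it was 0.25 and no longer called (adjusted p = 0.0874, edgeR). Under propofol Bid spanned 8.21 to 11.4 CPM in sepsis and 8.91 to 11.95 CPM in controls, overlapping almost fully, with a log2 fold change of -0.13 ± 0.13 (adjusted p = 0.429, edgeR).

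Bcl2l11 encodes Bim, a potent BH3-only protein whose gene is a known target of FOXO factors. Its reads in Isoflurane-Sepsis libraries 1 to 4 were 14, 94, 239 and 21, equal to 0.699, 6.06, 12.4 and 1.27 CPM. The Isoflurane-Control libraries had 9, 11, 5 and 27 reads, or 0.423, 0.545, 0.232 and 0.563 CPM. All 4 septic libraries were above all controls, but libraries 2 and 3 were far above libraries 1 and 4, and the septic SD of 5.42 CPM exceeded the septic mean of 5.10 CPM. The log2 fold change of 3.49 ± 0.89 was the highest of the 8 tested members (adjusted p = 0.0106, edgeR). It depended on those pools: 2.50 without library 3 (adjusted p = 0.0234), 1.07 without libraries 2 and 3 (adjusted p = 0.0736), and 2.63 with limma-voom on all libraries (adjusted p = 0.0769). Under propofol the septic libraries held 22, 32, 7 and 12 reads and the controls 11, 6, 13 and 14 reads. Libraries 9 and 10 lay above the controls in CPM and libraries 11 and 12 within their range, and the log2 fold change of 0.54 ± 0.51 was not called (adjusted p = 0.41, edgeR).

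In the annotation of GRCr8 Bcl2l11 overlaps Acoxl, an acyl-CoA oxidase-like gene. Acoxl had 0, 1, 7 and 1 reads in Isoflurane-Sepsis libraries 1 to 4 and 0 reads in the other 12 libraries. The kit kept the strand, but the sources used here do not say whether the counting used it, so reads of such overlapping genes may be mixed. Bcl2a1, Bak1, Bcl2l1 and Bcl2 also overlap a predicted gene or pseudogene in that annotation.

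Bbc3 encodes Puma, a BH3-only protein that binds all the main pro-survival proteins. Isoflurane-Sepsis libraries held 7.44, 11.6, 19.8 and 8.28 CPM and Isoflurane-Control libraries 5.60, 4.85, 3.58 and 4.46 CPM. The septic libraries were all above the controls, library 3 most of all. This was a log2 fold change of 1.36 ± 0.31 (adjusted p = 0.00678, edgeR), and it stood at 0.76 without libraries 2 and 3, where it was still called (adjusted p = 0.0136). Under propofol levels of 5.76, 5.62, 7.22 and 6.69 CPM in sepsis lay just above 5.54, 4.602, 4.48 and 4.85 CPM in controls, without overlap. Its log2 fold change of 0.37 ± 0.13 (adjusted p = 0.0381, edgeR) lost its call on leaving out library 11, 12, 14, 15 or 16 (adjusted p between 0.0753 and 0.104), with library totals alone (0.0721), without the limit on low counts (0.0579) and in the fit of all 16 libraries (0.238).

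Pmaip1, which encodes the Mcl1-binding BH3-only protein Noxa, was close to absent from the counts. Its reads summed to 13 in Isoflurane-Sepsis and to 6 in Isoflurane-Control, a scaled ratio of 3.23 (95% exact Poisson interval 1.14 to 10.35). The library values overlapped, from 0.0499 to 0.311 CPM in sepsis and from 0 to 0.099 CPM in controls, and the two-sided exact permutation test gave p = 0.114. Under propofol 12 septic and 8 control reads gave a ratio of 1.19 (0.449 to 3.37) and p = 0.371 by the exact permutation test. Over the 4 permutation tests of Bcl2 and Pmaip1 the adjusted p-values lay between 0.457 and 0.743.

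**Figure D3:**
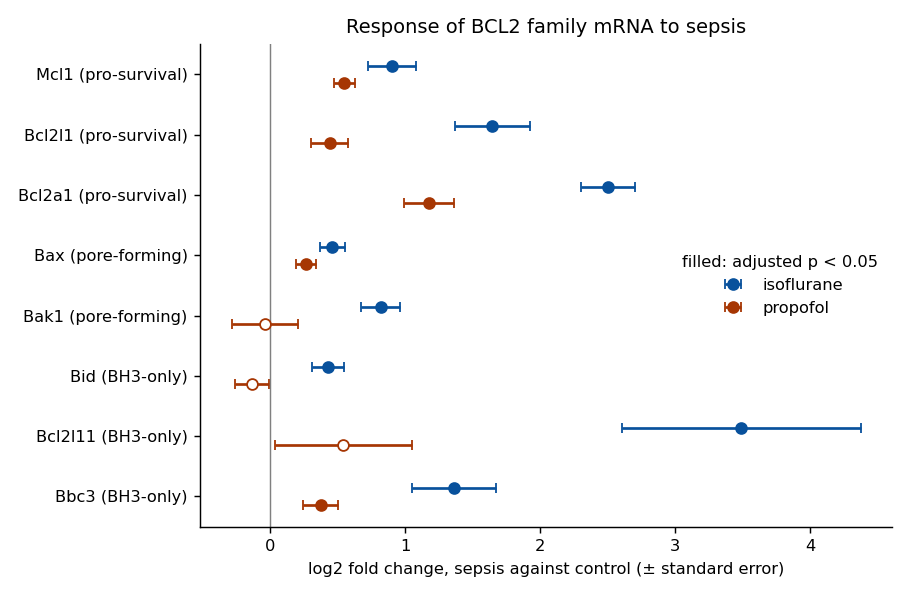
Log2 fold change of sepsis against control (horizontal axis, bars are standard errors) of the 8 tested members under isoflurane and propofol. Filled points are called at an adjusted p below 0.05, which holds for 8 members under isoflurane and 5 under propofol. Bcl2l11 under isoflurane has the largest value, 3.49, and the widest error.

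The isoflurane and propofol responses were compared with each other as an interaction over all 16 libraries. Only Bcl2a1 passed, with a response greater under isoflurane by 1.32 ± 0.27 on the log2 scale (adjusted p = 0.0249, edgeR quasi-likelihood test), where 2.72% of the 10621 genes tested were called, 1.66% higher and 1.06% lower. The other 7 tested members also had positive differences, none of them called: 1.19 ± 0.32 for Bcl2l1 (adjusted p = 0.0613), 0.55 ± 0.17 for Bid (0.0839), 0.85 ± 0.30 for Bak1 (0.11), 0.97 ± 0.35 for Bbc3 (0.119), 2.94 ± 1.11 for Bcl2l11 (0.134), 0.34 ± 0.20 for Mcl1 (0.305) and 0.18 ± 0.11 for Bax (0.328). Unadjusted p-values were below 0.05 for 6 of the 8, a count read without its background, since that share was not computed over all genes. The median difference over all genes tested was -0.02. This comparison was the least steady of those made: DESeq2 called 3 members (Bcl2a1, Bcl2l1 and Bcl2l11), leaving out library 1 gave 5 and leaving out library 11 gave 2. Those fits called 847 of 10621, 1615 of 10708 and 138 of 10721 genes, against 289 of 10621 by edgeR on all libraries. No member was called by edgeR without library 6, 8 or 12 or without libraries 2 and 3, the Bcl2a1 difference then being 1.24, 1.32, 1.26 and 1.39 with adjusted p-values between 0.0558 and 0.0627.

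The control groups already differed in Bcl2a1. In control liver Bcl2a1 was lower under isoflurane than under propofol (log2 difference -0.88 ± 0.20, adjusted p = 0.00525, edgeR), with 0.792 to 1.07 CPM against 1.48 to 2.32 CPM and no overlap. Bak1 (-0.68 ± 0.21, adjusted p = 0.0268) and Bid (-0.40 ± 0.12, adjusted p = 0.025) were also lower and Mcl1 higher (0.44 ± 0.14, adjusted p = 0.0287). So 4 of 8 tested members were called between the control groups, where 26.3% of genes were called, 13% higher and 13.3% lower. In Mcl1 every isoflurane control lay above every propofol control, as was the case for 20.0% of genes. In Bcl2a1, Bak1 and Bid every isoflurane control lay below every propofol control. The share of all genes separated in that direction was not computed. The summed hepatocyte markers stood apart too, at 118700 to 127300 CPM in Isoflurane-Control and 86420 to 96560 CPM in Propofol-Control libraries. Of 6 hepatocyte markers 4 were called higher under isoflurane and 1 lower (edgeR), and their part in these differences was not tested. The Bcl2a1 call held without any 1 library, whereas that of Mcl1 was lost on leaving out library 5, 6, 8, 14 or 16, that of Bak1 without library 5, 6, 15 or 16, and that of Bid without library 5, 6, 7, 8, 13 or 16. Leaving out single libraries, 1 to 5 members were called, and 2029 to 3229 of all genes. Scaling by library totals alone moved the median of all genes to -0.15, turned the share of higher genes among those called from 49.4% to 19.6% and left Mcl1 at 0.30 (adjusted p = 0.122).

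In septic liver 5 members were higher under isoflurane than under propofol and none was lower. They were Bcl2l1 (1.45 ± 0.23, adjusted p = 0.000402), Mcl1 (0.78 ± 0.14, adjusted p = 0.000842), Bax (0.39 ± 0.08, adjusted p = 0.00172), Bbc3 (0.90 ± 0.24, adjusted p = 0.00935) and Bcl2l11 (2.56 ± 0.71, adjusted p = 0.0113), all log2 differences tested with edgeR. Of all genes 38.6% were called here, 19.6% higher and 19.0% lower, 12.5% had every Isoflurane-Sepsis library above every Propofol-Sepsis library, and the median moved to -0.16 with library totals alone, when 24.9% of called genes were higher in place of 50.9%. Bcl2l1, Mcl1, Bax and Bbc3 showed no overlap between the septic groups, while Bcl2l11 did. Bcl2a1 (0.44 ± 0.17, adjusted p = 0.0588), Bak1 (0.17 ± 0.21) and Bid (0.15 ± 0.12) were not called. Without libraries 2 and 3 only Bcl2l1 (1.00), Mcl1 (0.50) and Bax (0.32) remained called, Bcl2l11 falling to 0.17 (adjusted p = 0.844) and Bbc3 to 0.32 (adjusted p = 0.161). Bcl2l11 lost its call also without library 3 (1.60, adjusted p = 0.0696). Marker sums separated these groups as well. Hepatocyte sums were 97010 to 110300 CPM in Isoflurane-Sepsis and 79200 to 88920 CPM in Propofol-Sepsis, and endothelial sums were 104.8 to 117 and 141 to 148 CPM. By gene, 3 of 6 hepatocyte markers were called higher under isoflurane and 1 lower (edgeR). Of 5 endothelial markers 0 were called higher and 4 lower. Of 8 neutrophil and monocyte markers 4 were called higher under isoflurane and 0 lower, and of 7 Kupffer cell markers 4 were called higher and 1 lower. Their part in the members' differences was not tested.

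The highest Isoflurane-Sepsis pool was not the same for every member. Library 3 was the highest Isoflurane-Sepsis library for Mcl1, Bcl2l1, Bax, Bcl2l11, Bbc3 and Pmaip1, library 4 for Bcl2a1 and Bcl2, library 2 for Bid and library 1 for Bak1. Library 1 was the lowest for Mcl1, Bcl2l1, Bcl2a1, Bax, Bid, Bcl2l11, Bbc3 and Pmaip1. Relative to the mean of the controls, library 1 held 1.60 times and library 3 held 4.65 times the Bcl2l1 level. The share of all genes with the same highest or lowest pool was not computed. Libraries were pools, and what differed between them was not tested.

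**Figure D4:**
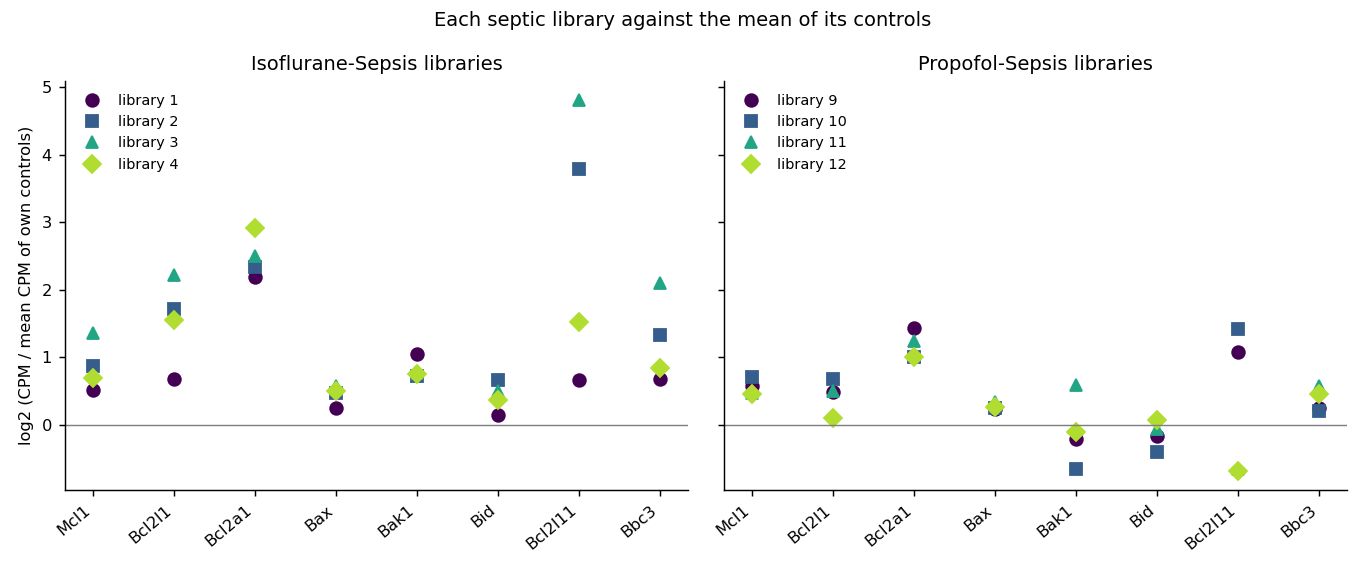
Log2 ratio of each septic library to the mean CPM of its own controls (vertical axis) for the 8 tested members, with a symbol for each library, isoflurane on the left and propofol on the right. Bcl2l11 in libraries 2 and 3 lies far above the other Isoflurane-Sepsis points, while Bax points lie close together under each anesthetic.

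Ratios within a library compare members without regard to transcript length, once set against the mean of the controls. The Bcl2l1 to Bax ratio was higher in all Isoflurane-Sepsis libraries than in all their controls, by 1.09 on the log2 scale (SD 0.50 in sepsis and 0.09 in controls, n = 4 each), and overlapped under propofol (0.17, SD 0.24 and 0.17). The Mcl1 to Bax ratio lay above its controls in every septic library, by 0.41 (SD 0.26) under isoflurane and 0.28 (SD 0.15) under propofol. The lowest propofol septic value, 0.14, exceeded the highest control, 0.13, only narrowly. The Bcl2l11 to Mcl1 ratio was 1.91 higher under isoflurane with an SD of 1.59, its lowest septic library (0.22) within the control range. Under propofol its change was -0.21 (SD 1.005). The Bcl2l11 to Bcl2l1 ratio changed by 1.23 under isoflurane and -0.11 under propofol, and the Bbc3 to Mcl1 ratio by 0.39 and -0.18, all with overlap. The Bcl2a1 to Bax ratio rose by 2.04 and 0.91, without overlap. These ratios have no test.

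Over the 16 libraries, the genes whose centred log2 CPM profile lay nearest to each member were found among the 10621 genes of the shared fit, with the root mean square difference as the measure. Nearest to Mcl1 was Rnf2 (0.10, against 0.50 for the profile of Mcl1 itself), then Arhgef12 and RGD1561149. Bcl2l1 was nearest to Zfp295, Phf13 and Gla (0.16 to 0.17, against 0.77). Bcl2a1 was nearest to Dram, Ncf4 and Igsf6 (0.27 to 0.30, against 0.97), Ncf4 being a subunit of the phagocyte oxidase. Bbc3 was nearest to H3f3b, Ddit3 and Fam46a (0.19 to 0.20, against 0.58), and Bax to Mark2, Cdc42 and B4galt3 (0.07 to 0.08, against 0.26). For Bid (Cct4, Pabpc4 and Cnbp, 0.12 to 0.14 against 0.22), Bak1 (Lgals3bp, Il13ra1 and Gpr39, 0.23 to 0.25 against 0.39) and Bcl2l11 (Vwa1, Emp1 and Smox, 0.59 to 0.61 against 1.365) the nearest profile was more distant relative to the member's own variation.

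Of 13 other genes of the BCL2 family 9 could be tested, and under isoflurane 6 rose and 1 fell, where 25.7% of all genes were called higher and 24.4% lower. Their median log2 fold change was 0.59. Hrk, a BH3-only gene, went from 3.02 to 4.23 CPM in controls to 6.19, 16.7, 25.96 and 3.63 CPM in Isoflurane-Sepsis libraries 1 to 4, so library 4 lay within the control range. Its log2 fold change of 1.86 ± 0.55 (adjusted p = 0.0199, edgeR) went to 1.26 without library 3 (adjusted p = 0.04995) and to 0.43 without libraries 2 and 3 (0.204), and was not called without library 6 or 7 (0.0524 and 0.0562) or with limma-voom (0.0756). Bnip3, a mitophagy receptor known to respond to hypoxia, rose by 1.64 ± 0.38 (adjusted p = 0.00678) and by 0.79 without libraries 2 and 3. Bok, a further pore former, rose by 0.89 ± 0.25 (adjusted p = 0.0161), a call lost without library 8 (0.0578) and without libraries 2 and 3 (0.87, adjusted p = 0.0646), and Bcl2l13, a mitochondrial membrane protein of the family, by 0.59 ± 0.13 (adjusted p = 0.00456). Bcl2l12 fell by 0.68 ± 0.16 on the log2 scale (adjusted p = 0.00663). Without libraries 2 and 3 the list had 3 higher and 1 lower, where 2276 of 10542 genes were higher and 2152 lower. Under propofol 4 of the 9 rose and none fell, against 20.4% of all genes higher and 21.7% lower: Bnip3 (1.00 ± 0.20, adjusted p = 0.00341), the BH3-only gene Bad (0.47 ± 0.10, adjusted p = 0.00587), the pro-survival gene Bcl2l2 (0.45 ± 0.08, adjusted p = 0.00217) and Bnip3l (0.42 ± 0.11, adjusted p = 0.0112), with a median of 0.31.

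Downstream of mitochondria, 4 of 15 apoptosome and caspase genes were higher and 6 lower under isoflurane. The 26.7% called higher was near the 25.7% of all genes, of which 24.4% were lower. Under propofol 4 were higher and 3 lower, against 20.4% and 21.7% of all genes. Under isoflurane Casp2 (0.78), Htra2 (0.52) and Dffa (0.47) were among those that rose (edgeR quasi-likelihood test). Endog (-1.14), the mitochondrial endonuclease, fell there, as did Casp8 (-0.70), the initiator downstream of death receptors, Casp9 (-0.53), the initiator of the apoptosome, and Dffb (-0.43). Without libraries 2 and 3 Dffa was not called (adjusted p = 0.0619), and the Dffb call was lost without library 1, 2, 4, 5, 7 or 8 (adjusted p up to 0.0875). Under propofol the apoptosome scaffold Apaf1 (0.63), Htra2 (0.34) and the cytochrome c gene Cycs (0.22) were among those that rose, and Casp12 (-0.76), Endog (-0.68) and Casp8 (-0.68) fell, the call of Cycs being lost without library 9, 15 or 16 (adjusted p up to 0.0529). The median of the list was 0.03 under isoflurane and -0.14 under propofol. With library totals alone 8 of the list were lower and 3 higher under propofol, against 2700 and 1675 of 10348 genes.

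Of 6 caspase inhibitors only Birc3 and Cflar were called, higher under each anesthetic, as were 25.7% of all genes under isoflurane and 20.4% under propofol. Birc3, which encodes cIAP2, rose by 1.51 ± 0.22 under isoflurane (adjusted p = 0.000815, edgeR) and 1.23 ± 0.16 under propofol (adjusted p = 0.000373). Cflar encodes FLIP, which blocks caspase activation at death receptors, and rose by 0.84 ± 0.09 under isoflurane (adjusted p = 0.000168) and by 1.495 ± 0.10 under propofol (adjusted p = 1.42e-05). Its interaction was the opposite of that of Bcl2a1, a response smaller under isoflurane (-0.67 ± 0.14, adjusted p = 0.0254, edgeR), not called without library 6, 7 or 8. Its controls differed as well, 55.4 to 58.8 CPM under isoflurane and 25.75 to 36.4 CPM under propofol.

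Of 8 tested genes of the death receptor pathway, 2 rose and 1 fell under each anesthetic. The share that rose, 25%, was near that of all genes, 25.7% under isoflurane and 20.4% under propofol. The kinase gene Ripk1 rose by 0.40 ± 0.09 under isoflurane (adjusted p = 0.00714, edgeR) and 0.43 ± 0.07 under propofol (adjusted p = 0.000814). Under isoflurane Tnfrsf10b (0.27) was also called, a call lost in 11 of 16 alternative fits: without library 2, 4, 5, 6, 7 or 8, without libraries 2 and 3, with DESeq2 (adjusted p = 0.0522), with library totals alone (0.127), without the limit on low counts (0.104) and in the fit of all 16 libraries (0.0758). The call of Tradd (-0.47) was lost in 7 of 16, without library 1, 2, 3, 5, 6 or 8 and without libraries 2 and 3. Under propofol Traf2 (0.37) and Tnfrsf1a (-0.37) were called.

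Among 7 tested regulators of family members, 5 rose and 1 fell under isoflurane, where 25.7% of all genes rose and 24.4% fell, and 4 rose and none fell under propofol, where 20.4% rose and 21.7% fell. Foxo3, a FOXO factor, was at 7.20 to 9.15 CPM in Isoflurane-Control and at 12.03, 20.3, 44.1 and 14.1 CPM in Isoflurane-Sepsis libraries 1 to 4. Its log2 fold change was 1.53 ± 0.39 (adjusted p = 0.0107, edgeR), and 0.96 without library 3. A part of Foxo3 in the results for the members was not tested. Ddit3, which encodes the stress factor CHOP, rose by 1.43 ± 0.24 (adjusted p = 0.00148) and Rela, an NF-kB subunit, by 0.65 ± 0.11 (adjusted p = 0.00172). The channel gene Vdac2, whose protein holds Bak1, fell by 0.22 on the log2 scale, a call lost without library 1, 3, 4, 5, 6 or 8 (adjusted p up to 0.108). Under propofol Foxo3 rose by 0.81 ± 0.16 (adjusted p = 0.00334, and 0.0529 in the fit of all 16 libraries), Usp9x, a deubiquitinase of Mcl1, by 0.45 ± 0.08 (adjusted p = 0.00135), Stat3 by 0.38 ± 0.07 (adjusted p = 0.00263) and Rela by 0.26 ± 0.07 (adjusted p = 0.0123). In the interaction Bcl2l13 (0.72), Casp12 (0.78) and Ddit3 (1.12) had a more positive response under isoflurane, but these calls were not steady. They were lost in 11, 14 and 15 of 23 alternative fits, among them the fit without libraries 2 and 3 for each gene and 10, 12 and 12 of the 16 fits that leave out a single library.

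**Figure D5:**
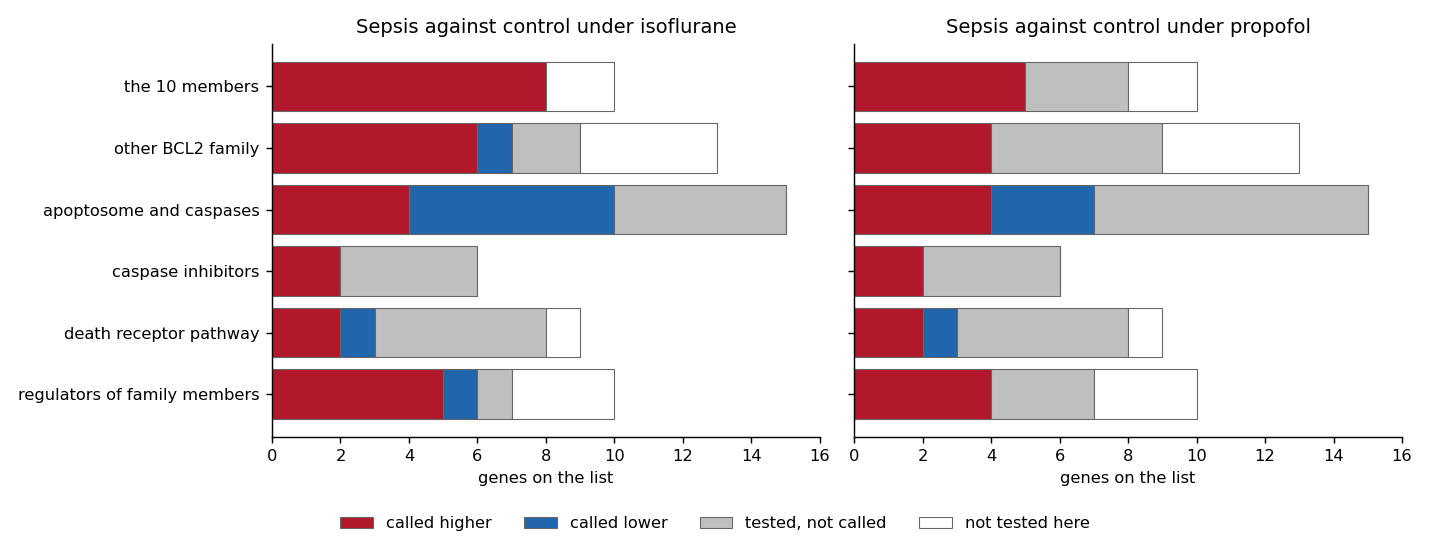
Number of genes on each list (horizontal axis) called higher, called lower, tested and not called, or not tested, in sepsis against control under isoflurane (left) and propofol (right). The bar of the 10 members shows 8 called higher under isoflurane and 5 under propofol, and the caspase list has 6 and 3 genes called lower.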

How the data were processed

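Polyadenylated liver RNA was sequenced from 1 end with a kit that keeps the strand. For each of the 16 libraries the authors deposited counts, unnormalized whole numbers of reads for 17055 gene symbols. The submitters' processing notes name STAR and the build rn5. For the counting program and its annotation, nothing is given in the sources used here. The 2 entries that name no gene (21.6% to 25.4% of reads outside genes, 1.07% to 1.35% ambiguous) were left out. Groups came from the sample labels.

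Genes were kept by filterByExpr (minimum count 10, minimum total 15), scaled by TMM and tested by quasi-likelihood in edgeR 4.0.16 (R 4.3.3), with a fit of 4 against 4 libraries for each anesthetic and 1 fit of 16 libraries for the 3 comparisons across anesthetics. P-values were adjusted by Benjamini-Hochberg over all genes and called below 0.05. Bcl2 and Pmaip1 had exact permutation tests. Alternatives were RLE size factors, library totals alone, DESeq2 1.42.0, limma-voom (limma 3.58.1), other limits on low counts, all 16 libraries, and each library left out. The fits were also run on simulated counts with few changed genes and the same spread for every gene. That setting differs from these data, where 50.0% of genes were called under isoflurane and spread varied between genes.

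The members and all lists were chosen with earlier results of these data known. Beyond the 10 members, up to 4 called genes per list and direction with the largest change are named in each sepsis comparison and their interaction, along with the 3 nearest profiles of each member. Values of some genes on the lists are not reported here. Acoxl, Mpo and Fpr1 were named after their values were seen. Promoter windows are from RefSeq GRCr8, not the build of the files.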

Additional observations from a re-analysis of the deposited data

Results flagged for a closer look

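In each group of 4 libraries, the levels of the 10 members were examined for a library far from the rest of its group by Dixon's gap ratio, 40 combinations of member and group in all, of which chance marks about 5%. The level of Mcl1 in Isoflurane-Control library 7 was 159.9 CPM, with the other 3 libraries between 193 and 196 CPM. The level of Bak1 in Isoflurane-Sepsis library 1 was 3.94 CPM, with the others between 3.16 and 3.26 CPM. Bcl2l11 in Isoflurane-Sepsis was not marked, since its 2 high libraries widen the range. The response of Bcl2a1 to sepsis differed between the anesthetics by 1.32 on the log2 scale in the interaction test.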

How the results depend on the processing

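No paired analysis was possible because the labels number the libraries 1 to 16 and the groups share no number. Of 70 counts of members or of all genes called in alternative fits other than leaving out single libraries, 62 stayed within 1.5 times of those given. Of the others, the fit of all 16 libraries gave 3 members under propofol, DESeq2 gave 3 members and 847 genes in the interaction, and the fit without a limit on low counts gave 168 genes there. Without Isoflurane-Sepsis libraries 2 and 3, chosen after seeing the data, the interaction had 0 members and 66 genes called by edgeR, and septic liver had 3 members and 2726 genes called between anesthetics. With single libraries left out, 8 members stayed called under isoflurane in each fit and 3 to 5 under propofol. The interaction had 0 to 5, control liver 1 to 5 and septic liver 4 to 6. Of all genes, 4145 to 5668 were then called under isoflurane and 3501 to 4291 under propofol. In control liver 2029 to 3229 genes were called, and in septic liver 3130 to 4722. The genes called in the interaction then ranged from 54 (without library 12) to 1615 (without library 1), against 289. The log2 difference ran from -0.31 to 0.11 for Bak1 under propofol (positive without library 9, 10 or 16, at 0.01, 0.11 and 0.02) and from -0.17 to 0.0264 for Bbc3 in control liver (positive without library 7), and was -0.0141 for Bid in septic liver without libraries 2 and 3, none of these called. Of 783 alternative fits of named pathway genes, added after seeing the data, 689 stayed called in the same direction and 94 did not, with 0 reversed. Causes of these changes were not tested. Fewer libraries also leave fewer residual degrees of freedom. Under 20 reads per library, as for Bcl2, Pmaip1 and most Bcl2l11 values, depth limits what can be seen.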

Other observations

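Bmf, a BH3-only gene linked to the cytoskeleton, was named after its values were seen. It was higher under isoflurane than under propofol in septic liver (log2 difference 1.43 ± 0.44, adjusted p = 0.0193, edgeR) but not called in either sepsis comparison (log2 fold change 1.05 ± 0.53, adjusted p = 0.126, under isoflurane and -0.41 ± 0.23, adjusted p = 0.185, under propofol, edgeR). Its level in Isoflurane-Sepsis libraries 1 to 4 was 0.898, 2.06, 3.68 and 7.74 CPM, against 1.58 to 1.83 CPM in controls, so library 4 was the highest for Bmf while library 3 was the highest for the BH3-only genes Bcl2l11, Hrk and Bbc3.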
